A study of Capra hircus with 3 samples.

Results

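Hepatic stellate cells were read in 3 single-cell RNA-seq libraries of goat liver as the barcodes that meet a rule on raw UMIs (unique molecular identifiers, 1 per captured transcript). The UMIs of PDGFRB, LRAT, HGF and RELN had to sum to at least 3, to more than those of the hepatocyte genes CPS1 and ABCB11, and to more than those of the fibroblast and smooth muscle genes DCN, ACTA2, MYH11 and LUM. STAB2, MSR1, PKHD1 and THEMIS, which mark sinusoidal endothelium, macrophages, cholangiocytes and T cells, had to be at 0. The rule took 928 of 25591 barcodes: 338 of 9375 in the NASH-T library, 374 of 8731 in the NASH library and 216 of 7485 in the Con library. These barcodes are called stellate barcodes, since the values that chose them come from the same counts that are described here.

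The libraries come from female goats aged 3 to 4 years, and the livers of 5 goats were pooled into 1 library per group. Goats of the steatohepatitis tolerance group (NASH-T) and goats with non-alcoholic steatohepatitis (NASH) were fed the HRDS diet, and healthy goats (Con) were fed the LRDS diet, names that the labels do not spell out. Livers were digested with 0.25% trypsin at 37 °C for about 40 min and passed through a 40 µm strainer. Group, pool, digestion and library coincide, so differences between libraries cannot be told apart from differences between these pools or their handling. There is no replicate, and no p-value can be given. Intervals in parentheses are exact 95% intervals of counting error only, and say nothing of the spread between goats.

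Hepatic stellate cells lie between hepatocytes and the sinusoidal endothelium. They store vitamin A as retinyl esters made by LRAT, secrete hepatocyte growth factor (HGF), which acts on hepatocytes through the receptor MET, and carry the PDGF receptor PDGFRB. In chronic liver injury they can turn into contractile, matrix-producing cells marked by smooth muscle actin (ACTA2) and fibrillar collagens.

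Each of the 4 rule genes was also read in barcodes that the other 3 had chosen. HGF then had 7531 CPM in NASH-T, 6297 CPM in NASH and 7881 CPM in Con, where CPM are UMIs per 1000000 UMIs of the set. All other barcodes of the same libraries had 44.4 CPM in NASH-T, 41.6 CPM in NASH and 41.5 CPM in Con. An HGF UMI was present in 96.1% of these barcodes in NASH-T, 95.5% in NASH and 97.1% in Con. Among T cells, which should lack the gene, the share was 1.34% in NASH-T, 1.07% in NASH and 1.23% in Con. RELN, the secreted glycoprotein reelin, had 11258 CPM in NASH-T, 9628 CPM in NASH and 10219 CPM in Con in barcodes chosen without it, and was present in 88.9% of them in NASH-T, 89.8% in NASH and 86.1% in Con. The share of T cells with a RELN UMI was 3.63% in NASH-T, 2.94% in NASH and 2.79% in Con. The median depth was 1850.0 UMIs in NASH-T, 1640.5 in NASH and 2062.5 in Con for stellate barcodes, and 1373 in NASH-T, 1152 in NASH and 1300.0 in Con for T cells. PDGFRB and LRAT were far sparser. PDGFRB had 177 CPM in NASH-T, 149 CPM in NASH and 134 CPM in Con when it was not used for the choice, and LRAT had 182 CPM in NASH-T, 145 CPM in NASH and 170 CPM in Con. A PDGFRB UMI was found in 24.0% of such barcodes in NASH-T, 23.4% in NASH and 22.1% in Con, against 0.574% of T cells in NASH-T, 0.268% in NASH and 0.328% in Con. Each of the 4 markers was thus found far more often than in T cells when the other 3 chose the cells, while RELN and HGF gave most of the UMIs. All other barcodes are those outside the full rule with all 4 markers. Their low marker levels are therefore in part set by the rule. PDGFRB did not set these barcodes apart from fibroblast or smooth muscle barcodes, which had 250 CPM in NASH-T, 416 CPM in NASH and 167 CPM in Con. HGF, RELN and LRAT were lower in that set, which was chosen to hold less of the 4 genes.

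Summed markers of hepatocytes, endothelium, macrophages, cholangiocytes, T or NK cells and B or plasma cells were lower than in all other barcodes. All of these lists but the B or plasma cell one hold a gene that the rule kept at 0 or low. None of these sums was 0. Fibroblast and smooth muscle markers were higher than in all other barcodes. Of 12 fibroblast and smooth muscle markers, TAGLN, MFAP5 and PI16 were at 0 in the stellate barcodes of every library, while the rule genes MYH11 and ACTA2 made up most of the summed level of 2999 CPM in NASH-T, 2158 CPM in NASH and 2586 CPM in Con. The same sum in all other barcodes was 48.9 CPM in NASH-T, 32.8 CPM in NASH and 58.1 CPM in Con. Of 10 cholangiocyte markers, 5 were at 0, EPCAM, KRT7, TFF3 and PKHD1 among them, and so were CD3D, CD3G, NKG7 and THEMIS of 11 T or NK cell markers. PKHD1 and THEMIS, like STAB2 and MSR1 below, were at 0 by the rule. TAGLN, MFAP5, PI16, KRT7, CD3D and NKG7 had no more than 0.971 CPM in all other barcodes of any library, so their zeros say little. The 15 hepatocyte markers summed to 3362 CPM in NASH-T, 4901 CPM in NASH and 3660 CPM in Con, against 14797 CPM in NASH-T, 16737 CPM in NASH and 12712 CPM in Con in all other barcodes. The 12 endothelial markers summed to 559.9 CPM in NASH-T, 488 CPM in NASH and 593 CPM in Con, with only STAB2 at 0, and the 10 macrophage markers to 258 CPM in NASH-T, 268 CPM in NASH and 243 CPM in Con, with only MSR1 at 0. The endothelial sum in all other barcodes was 1278 CPM in NASH-T, 747 CPM in NASH and 650 CPM in Con, so the 2 levels were close in Con. STAB2, held at 0 in stellate barcodes by the rule, made up 118 CPM of the Con sum in all other barcodes. That is more than the gap between the 2 Con levels, so the lower endothelial sum in Con rests on the rule. The 7 B or plasma cell markers summed to 218 CPM in NASH-T, 78.1 CPM in NASH and 123 CPM in Con, with CD79A and CD79B at 0. CD79A and CD79B were scarce in all other barcodes as well, at no more than 0.312 CPM. Scrublet called 13 stellate barcodes doublets in NASH-T, 22 in NASH and 16 in Con, and these held 6.06% of stellate UMIs in NASH-T, 16.1% in NASH and 13.6% in Con. Their hepatocyte markers summed to 7710.3 CPM in NASH-T, 11042 CPM in NASH and 10853 CPM in Con, against 3082 CPM in NASH-T, 3719 CPM in NASH and 2528.5 CPM in Con in the remaining stellate barcodes. They were kept, and values without them are given for named genes whose call they end or whose ratio they move by more than 1.5-fold.

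Stellate barcodes were 3.61% (3.24 to 4.00) of barcodes in NASH-T, 4.28% (3.87 to 4.73) in NASH and 2.89% (2.52 to 3.29) in Con. The ratio of these shares was 1.25 (1.05 to 1.49) for NASH-T over Con, 1.48 (1.25 to 1.76) for NASH over Con and 0.842 (0.724 to 0.978) for NASH-T over NASH. The summed UMIs of the 4 rule genes had a median of 33.5 per barcode in NASH-T, 25 in NASH and 36.5 in Con, and at the threshold 10 barcodes in NASH-T, 4 in NASH and 7 in Con had exactly 3 UMIs. Just outside it, 20 barcodes in NASH-T, 12 in NASH and 12 in Con met all other conditions with 2 UMIs. The 4 genes that had to be at 0 removed a further 71 barcodes in NASH-T, 70 in NASH and 39 in Con. Total depth was 29572158 UMIs in NASH-T, 31195014 in NASH and 25506238 in Con, of which stellate barcodes held 721544 in NASH-T, 768255 in NASH and 513979 in Con. Between 20 and 23 barcode sequences were shared by each pair of libraries, and no shared barcode was a stellate barcode in both.

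The genes that led the stellate barcodes over all other barcodes were signalling molecules, matrix proteins and parts of the cyclic nucleotide and contractile machinery. They are a description, since the same cells were chosen by their counts. Of 2815 genes with at least 50 UMIs and a UMI in at least 10% of stellate barcodes, 158 were at least 10-fold and 45 at least 50-fold higher than in all other barcodes in every library. The 25 named here had a smallest ratio of 74.2 to 129, with 1 CPM added to both levels. Among signalling molecules, HHIP, which binds and restrains Hedgehog ligands, had 7042 CPM in NASH-T, 4996 CPM in NASH and 6656 CPM in Con, against 49.0 CPM in NASH-T, 44.99 CPM in NASH and 38.4 CPM in Con in all other barcodes. RSPO3 and RSPO2, secreted R-spondins that amplify Wnt signals, had 988 CPM in NASH-T, 988 CPM in NASH and 944 CPM in Con for RSPO3, and 266 CPM in NASH-T, 292 CPM in NASH and 304 CPM in Con for RSPO2. BMP5, a bone morphogenetic protein, had 762 CPM in NASH-T, 734 CPM in NASH and 679 CPM in Con. These 3 ligands differed by less than 1.5-fold between every pair of libraries.

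**Figure D1:**
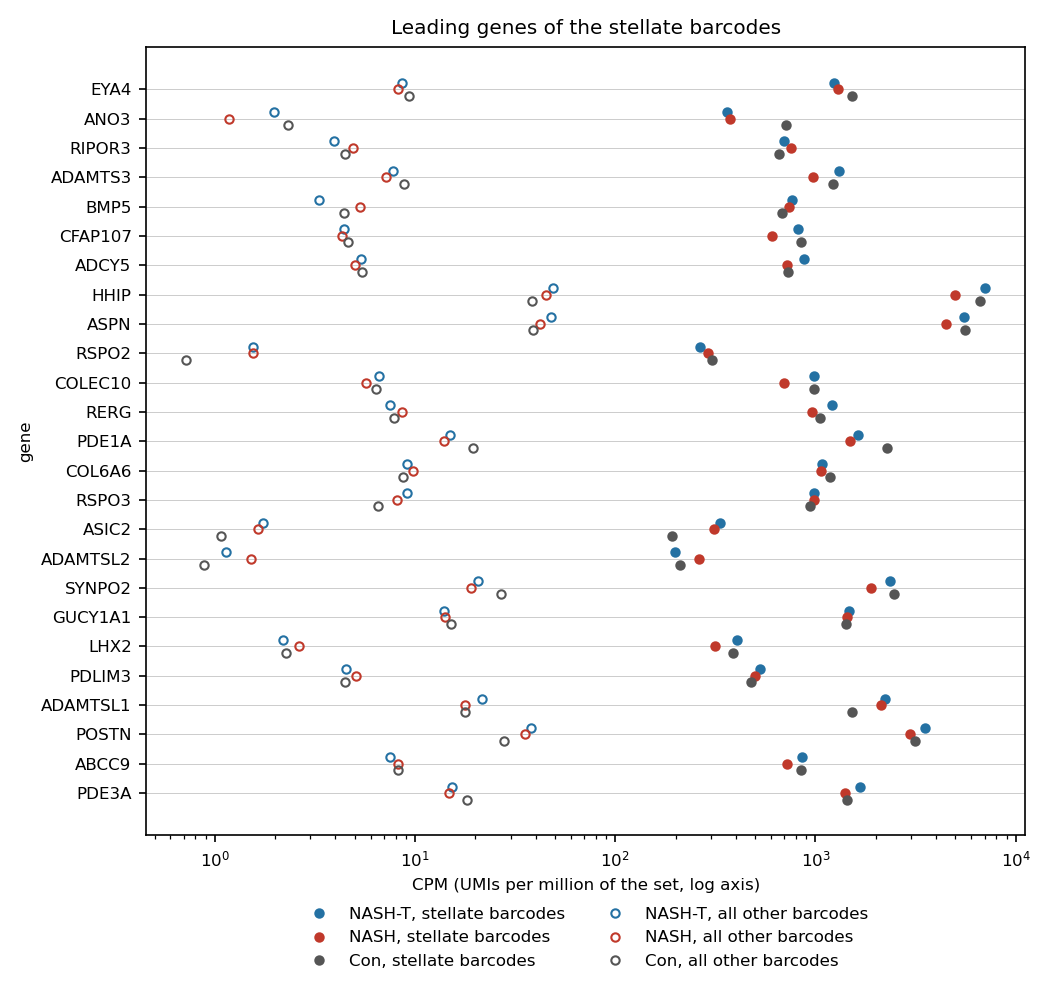
CPM of the 25 leading genes (log axis) in stellate barcodes (filled) and in all other barcodes (open) of the NASH-T, NASH and Con libraries, 1 point per library. Every filled point lies far right of the open points, by 74.2-fold or more with 1 CPM added to both, and the 3 libraries lie close together for most genes. ANO3 is an exception, at 363 CPM in NASH-T, 376 CPM in NASH and 714 CPM in Con.

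Matrix genes among the leaders included ASPN, a small leucine-rich proteoglycan, with 5528 CPM in NASH-T, 4508 CPM in NASH and 5557 CPM in Con. POSTN, the matricellular protein periostin, had 3522 CPM in NASH-T, 2964 CPM in NASH and 3127 CPM in Con, and the collagen chain gene COL6A6 had 1081 CPM in NASH-T, 1063 CPM in NASH and 1179 CPM in Con. ADAMTS3, a procollagen-processing protease, had 1318 CPM in NASH-T, 971 CPM in NASH and 1228 CPM in Con. ADAMTSL1, a secreted ADAMTS-like protein without protease activity, had 2233 CPM in NASH-T, 2127 CPM in NASH and 1525 CPM in Con, a ratio of 1.46 (1.34 to 1.60) for NASH-T over Con. Of the cyclic nucleotide genes, GUCY1A1, a subunit of the nitric oxide receptor guanylate cyclase, had 1468 CPM in NASH-T, 1439.6 CPM in NASH and 1416 CPM in Con. PDE3A, a phosphodiesterase that breaks down cyclic nucleotides, had 1677 CPM in NASH-T, 1397 CPM in NASH and 1430.0 CPM in Con, and ADCY5, an adenylate cyclase, had 880.1 CPM in NASH-T, 719.8 CPM in NASH and 726 CPM in Con. The ATP-sensitive potassium channel subunit ABCC9 had 855 CPM in NASH-T, 719.8 CPM in NASH and 846 CPM in Con. The actin-associated protein genes SYNPO2 and PDLIM3 had 2359 CPM in NASH-T, 1887 CPM in NASH and 2465 CPM in Con for SYNPO2, and 529 CPM in NASH-T, 497 CPM in NASH and 477 CPM in Con for PDLIM3. Among transcription regulators, EYA4 had 1240.4 CPM in NASH-T, 1296 CPM in NASH and 1518 CPM in Con, and LHX2, a LIM homeobox factor known in mice to restrain stellate activation, had 407 CPM in NASH-T, 315 CPM in NASH and 387 CPM in Con.

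Of the 25 leaders, the channel-related genes ANO3 and ASIC2 differed between libraries past 1.5-fold. ANO3, of the anoctamin family, had 363 CPM in NASH-T, 376 CPM in NASH and 714 CPM in Con, with ratios of 0.509 (0.432 to 0.598) for NASH-T over Con and 0.527 (0.450 to 0.616) for NASH over Con. ASIC2, an acid-sensing ion channel, had 333 CPM in NASH-T, 312 CPM in NASH and 193 CPM in Con, with ratios of 1.73 (1.36 to 2.21) for NASH-T over Con and 1.62 (1.28 to 2.07) for NASH over Con. PDE1A had a NASH over Con ratio of 0.651 (0.600 to 0.707), and the other 22 leaders stayed within 1.5-fold in all 3 comparisons.

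Against 99 barcodes chosen by a mirrored rule for fibroblasts or smooth muscle (37 in NASH-T, 23 in NASH and 39 in Con), the leaders ranged from genes at like levels in both sets to genes low in that set. PDE1A, a calcium-dependent phosphodiesterase, had 1502 CPM in NASH-T, 1913 CPM in NASH and 2013 CPM in Con in fibroblast or smooth muscle barcodes, beside 1626 CPM in NASH-T, 1490.4 CPM in NASH and 2288 CPM in Con in stellate barcodes. SYNPO2 had 2345 CPM in NASH-T, 2274 CPM in NASH and 2962 CPM in Con in that set, at or near its stellate level. PDE3A was also near or above its stellate level there, with 1423 CPM in NASH-T, 1913 CPM in NASH and 1436 CPM in Con. EYA4 lay in between, with 501 CPM in NASH-T, 638 CPM in NASH and 436 CPM in Con in that set. COL6A6 was lower there, with 92.2 CPM in NASH-T, 27.7 CPM in NASH and 89.8 CPM in Con, and so was HHIP, with 329 CPM in NASH-T, 776 CPM in NASH and 487 CPM in Con. RSPO3 had 145 CPM in NASH-T, 0 CPM in NASH and 25.6 CPM in Con in that set. These levels rest on 75905 UMIs in NASH-T, 36065 in NASH and 77978 in Con.

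RELN itself divided the stellate barcodes. No RELN UMI was found in 30 of 338 stellate barcodes in NASH-T (8.88%, 6.07 to 12.4), 30 of 374 in NASH (8.02%, 5.48 to 11.3) and 25 of 216 in Con (11.57%, 7.63 to 16.6). Most of these also lacked HHIP, 28 in NASH-T, 28 in NASH and 21 in Con, whereas 9 RELN-positive barcodes in NASH-T, 15 in NASH and 10 in Con did. Their median depth was 1654 UMIs in NASH-T, 2085 in NASH and 1851 in Con, against 1903 UMIs in NASH-T, 1637.5 in NASH and 2129 in Con with RELN, so depth was lower in NASH-T and Con but not in NASH. They had a median of 5 HGF UMIs in NASH-T, 5 in NASH and 4 in Con, against 12 in NASH-T, 10 in NASH and 14 in Con with RELN.

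The RELN-negative barcodes carried genes of vascular endothelium and of fibroblasts. The vascular endothelial phosphatase gene PTPRB had 1548 CPM in NASH-T, 1514 CPM in NASH and 1606 CPM in Con without RELN, against 39.3 CPM in NASH-T, 8.55 CPM in NASH and 17.2 CPM in Con with it. EMCN, the endothelial sialomucin endomucin, had 949 CPM in NASH-T, 1244 CPM in NASH and 447 CPM in Con without RELN, against 31.7 CPM in NASH-T, 7.13 CPM in NASH and 8.61 CPM in Con with it. The ephrin receptor EPHA3 had 7009.9 CPM in NASH-T, 9415 CPM in NASH and 5571 CPM in Con without RELN, against 72.6 CPM in NASH-T, 35.6 CPM in NASH and 194 CPM in Con with it. C7, a terminal complement component, had 1748 CPM in NASH-T, 2129 CPM in NASH and 2562 CPM in Con without RELN, against 57.4 CPM in NASH-T, 59.9 CPM in NASH and 53.8 CPM in Con with it. At least 2 UMIs of endothelial markers were found in 12 of the 30 RELN-negative barcodes in NASH-T, 8 of 30 in NASH and 9 of 25 in Con. With RELN, 9 of 308 barcodes in NASH-T, 3 of 344 in NASH and 6 of 191 in Con held as many. At least 2 UMIs of fibroblast or mesenchymal genes were found in 24 of the RELN-negative barcodes in NASH-T, 29 in NASH and 25 in Con. With RELN the counts were 45 of 308 in NASH-T, 44 of 344 in NASH and 35 of 191 in Con. Most genes of both counted sets are among those ranked highest without RELN in these barcodes, so the counts restate that ranking. In the other direction, CDH2 (N-cadherin) had 333 CPM in NASH-T, 329.8 CPM in NASH and 427 CPM in Con without RELN, against 6225 CPM in NASH-T, 6041 CPM in NASH and 6026 CPM in Con with it, and the bile acid receptor NR1H4 had 249.8 CPM in NASH-T, 225 CPM in NASH and 244 CPM in Con without RELN, against 3303 CPM in NASH-T, 2687 CPM in NASH and 2859 CPM in Con with it. RSPO2 and ASIC2 were at 0 in all 3 libraries without RELN. The genes shown were ranked on the same barcodes, so the split is a description. HGF, which acted as the other main rule gene, was lower without RELN, at 3280.2 CPM in NASH-T, 3313 CPM in NASH and 3375 CPM in Con. LRAT was nearly absent without RELN, at 33.3 CPM in NASH-T, 0 CPM in NASH and 0 CPM in Con. PDGFRB was higher without RELN, at 599 CPM in NASH-T, 480 CPM in NASH and 285 CPM in Con, against 151 CPM in NASH-T, 147 CPM in NASH and 127 CPM in Con with it. DCN was also higher without RELN, whereas MYH11 and ACTA2 were lower. Results between libraries are also given for RELN-positive barcodes alone where that ends a named gene's call or moves its ratio by more than 1.5-fold.

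**Figure D2:**
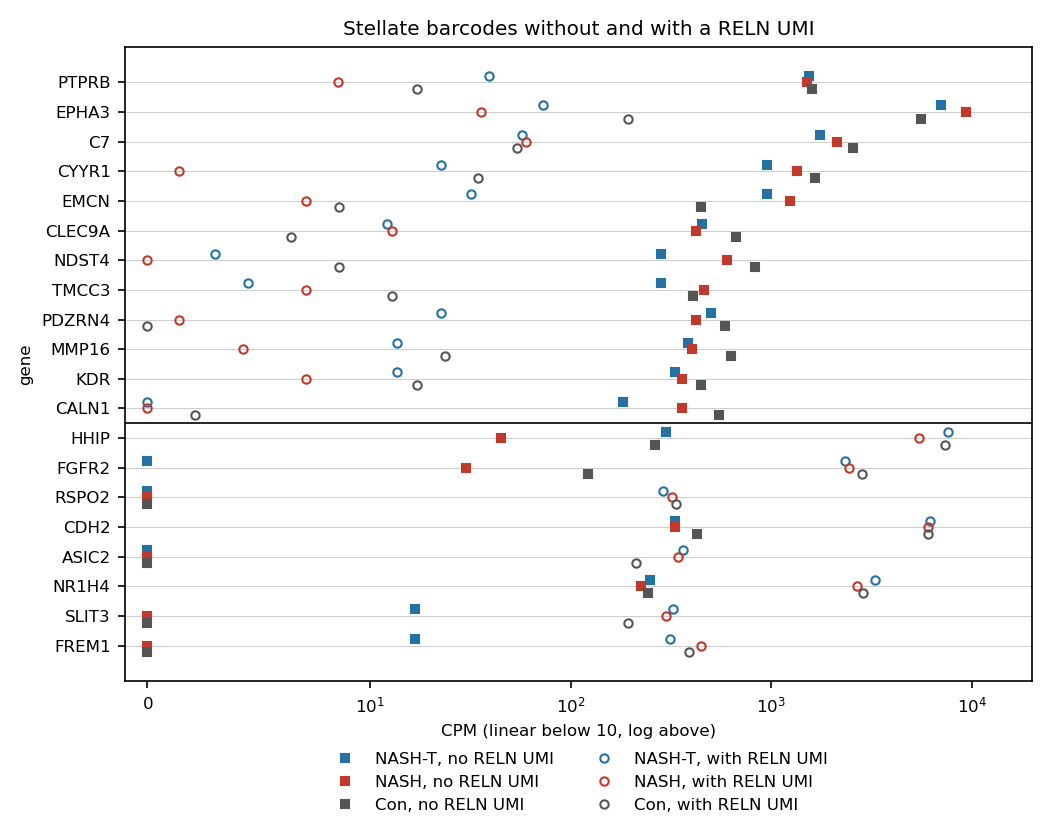
CPM (linear below 10, log above) of genes highest in stellate barcodes without a RELN UMI (squares, upper block) and highest in those with one (open circles, lower block), 1 point per library. EPHA3 lies between 5571 and 9415 CPM in the 3 sets without RELN and at no more than 194 CPM in the sets with it, and RSPO2 and ASIC2 lie at 0 without RELN.

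With every barcode thinned to 1000 UMIs (300 stellate barcodes in NASH-T, 317 in NASH and 199 in Con, leaving out shallower ones), the genes most like RELN from barcode to barcode were HHIP, CDH2, ASPN, FGFR2 and POSTN. The Pearson correlation of HHIP with RELN was 0.62 in NASH-T, 0.61 in NASH and 0.69 in Con, over 1360 genes compared, and that of CDH2 was 0.52 in NASH-T, 0.58 in NASH and 0.65 in Con. HGF followed other genes less closely. MYH11, the smooth muscle myosin heavy chain, ranked first by its smallest value over the libraries. Its correlation with HGF was 0.26 in NASH-T, 0.27 in NASH and 0.32 in Con. Other genes were higher in single libraries, such as GNA14 at 0.34 in NASH-T, HHIP at 0.28 in NASH and ASPN at 0.38 in Con. None of these was higher than MYH11 in every library. The rule required the summed genes with HGF to exceed those with MYH11, so the choice of barcodes can shape this correlation. The points are barcodes that share a library and include the RELN-negative ones, so these values describe the set.

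Between libraries, a gene of the stellate barcodes counted as higher or lower when its CPM ratio passed 1.5-fold, the counting interval excluded 1 and both libraries together held at least 20 UMIs. For NASH over Con, 670 of 6923 measured genes (9.68%) passed, 427 (6.17%) of them higher and 243 (3.51%) lower. For NASH-T over Con, 707 of 6696 (10.6%) passed, 316 (4.72%) higher and 391 (5.84%) lower. For NASH-T over NASH, 910 of 7270 (12.5%) passed, 322 (4.43%) higher and 588 (8.09%) lower. The median log2 ratio over all measured genes was 0.05 for NASH over Con, 0.02 for NASH-T over Con and -0.01 for NASH-T over NASH. The split between higher and lower moved when called doublets were left out. NASH-T over Con then had 312 higher (4.98%) and 214 lower (3.42%), and NASH-T over NASH had 286 higher (4.24%) and 290 lower (4.3%). NASH over Con had 327 higher (5.27%) and 216 lower (3.48%). The 3 comparisons share libraries pairwise, so their values are not independent of each other. Counts of a gene list below are read against these shares.

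**Figure D3:**
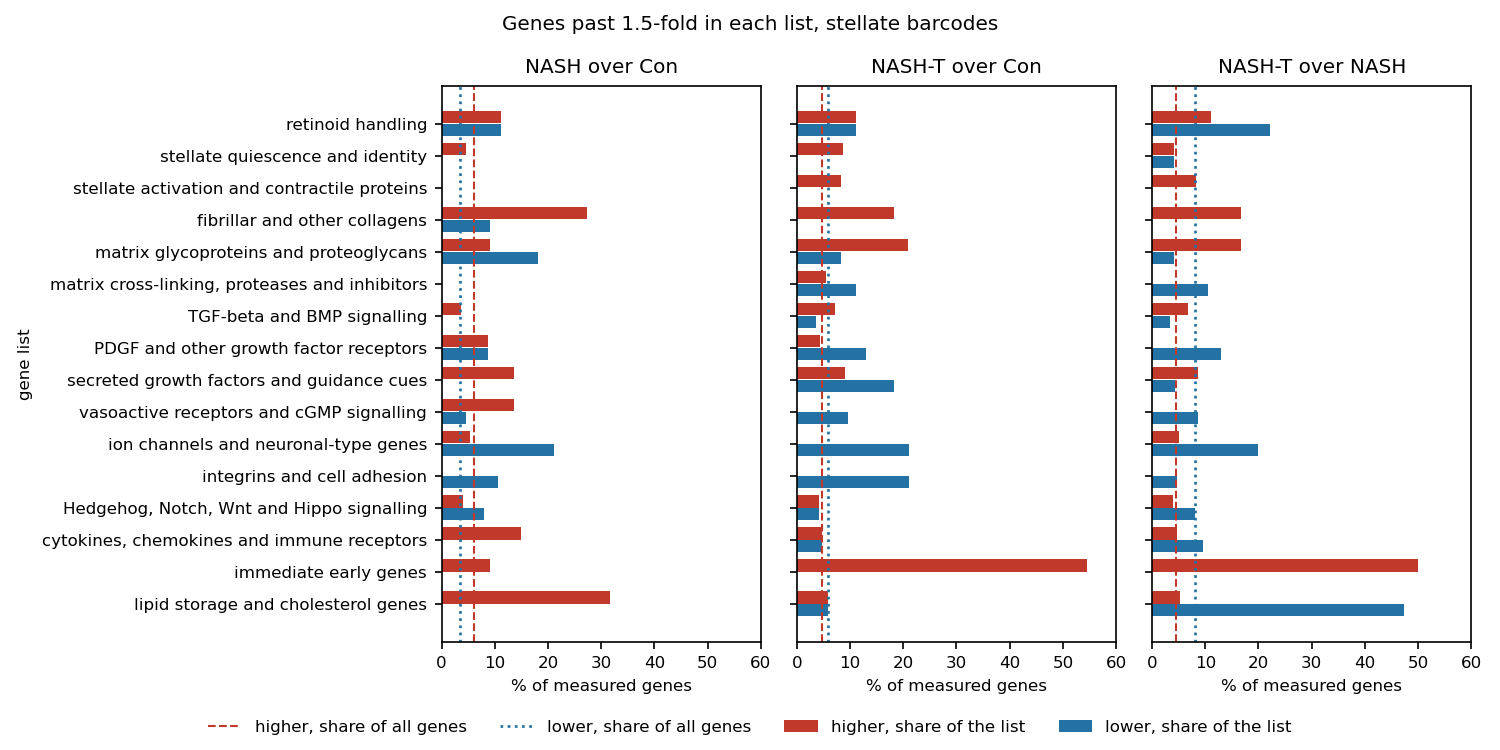
Share of the measured genes of each of 16 lists that were higher (red) or lower (blue) past 1.5-fold in stellate barcodes, for 3 library comparisons; dashed and dotted lines mark the same shares over all measured genes. Immediate early genes stand at 6 of 11 higher for NASH-T over Con and 6 of 12 for NASH-T over NASH, lipid and cholesterol genes at 6 of 19 higher for NASH over Con and 9 of 19 lower for NASH-T over NASH, and no other list has more than 5 genes called in 1 direction.

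Among the genes named for being higher in NASH than in Con stellate barcodes, RRAD had the highest ratio. RRAD is a small GTPase that restrains voltage-gated calcium channels. RRAD had 10 UMIs in NASH-T, 42 UMIs in NASH and 1 UMI in Con, or 13.9 CPM in NASH-T, 54.7 CPM in NASH and 1.95 CPM in Con, a NASH over Con ratio of 28.1 (4.78 to 1136). The Con count is a single UMI, so the interval is wide. With stellate barcodes thinned to 1000 UMIs, Con held no RRAD UMI. The value of 4.39 under that setting is set by the floor of 3 counts, so it does not measure a smaller difference. The gene was also 13.99-fold higher in all other NASH barcodes, at 4.92 CPM in NASH-T, 15.1 CPM in NASH and 1.08 CPM in Con. The matrix-associated inhibitor ITIH5, which binds hyaluronan, had 38.8 CPM in NASH-T, 61.2 CPM in NASH and 17.5 CPM in Con, with a NASH over Con ratio of 3.49 (1.69 to 8.11), against 0.831 in all other barcodes. THRA, a thyroid hormone receptor, had 42.96 CPM in NASH-T, 41.7 CPM in NASH and 13.6 CPM in Con and a ratio of 3.06 (1.33 to 8.21). NTRK3, a neurotrophin receptor, had 30.5 CPM in NASH-T, 57.3 CPM in NASH and 21.4 CPM in Con and a ratio of 2.68 (1.36 to 5.75), against 0.553 in all other barcodes. Fibroblast or smooth muscle barcodes held more NTRK3, at 408 CPM in NASH-T, 1109 CPM in NASH and 872 CPM in Con. Of the 44 NTRK3 UMIs in NASH stellate barcodes, 9 came from 1 barcode. The Kunitz protease inhibitor TFPI2 had a ratio of 3.01 (1.22 to 8.92), which was 2.15 and no longer counted among RELN-positive barcodes. The other named genes were HYPK (ratio 3.15, and 5.13 among RELN-positive barcodes), PPP1R35 (3.01), the kinase gene ALPK3 (2.75), the secreted metalloprotease ADAMTS19 (2.68) and ATG13 (2.68, and 4.64 among RELN-positive barcodes), which helps to start autophagy. All Con stellate barcodes held 7 UMIs of HYPK and 7 of ATG13, so the ratios of both are poorly bounded.

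Other genes were lower in NASH than in Con. CACNA1E, a voltage-gated calcium channel subunit, had 36.0 CPM in NASH-T, 18.2 CPM in NASH and 72.0 CPM in Con, a NASH over Con ratio of 0.253 (0.126 to 0.479), and counted as lower under all 12 alternative settings tried. It was also lower in NASH in all other barcodes, with a ratio of 0.542, at 43.7 CPM in NASH-T, 19.2 CPM in NASH and 35.5 CPM in Con. GRIK4, a kainate-type glutamate receptor subunit, had 15.2 CPM in NASH-T, 16.9 CPM in NASH and 66.2 CPM in Con and a ratio of 0.256 (0.124 to 0.497), while all other barcodes had a ratio of 1.11. DKK3, a secreted glycoprotein of the Dickkopf family, had 36.0 CPM in NASH-T, 23.4 CPM in NASH and 73.9 CPM in Con and a ratio of 0.317 (0.170 to 0.569). All other barcodes together had 0.659 CPM in NASH-T, 0.526 CPM in NASH and 0.560 CPM in Con of DKK3, but fibroblast or smooth muscle barcodes had 26.3 CPM in NASH-T, 83.2 CPM in NASH and 25.6 CPM in Con. TLL1, a tolloid-family metalloprotease, had 5 UMIs in NASH-T, 5 UMIs in NASH and 40 UMIs in Con and a ratio of 0.0836 (0.0258 to 0.212), with 9 of the 40 Con UMIs in 1 barcode. CLSTN2, a calsyntenin, had a ratio of 0.345 (0.176 to 0.651). PLA2G7, the secreted platelet-activating factor acetylhydrolase, had a ratio of 0.320 (0.141 to 0.683), and was 2.15-fold higher in all other NASH barcodes. Also lower were PIERCE1 (ratio 0.335), CFAP70 (0.335), ZNF570 (0.362) and COPS4 (0.372), a subunit of the COP9 signalosome.

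NASH-T stellate barcodes were higher than Con ones in FSHR, the follicle-stimulating hormone receptor, which had 28 UMIs in NASH-T, 3 UMIs in NASH and 2 UMIs in Con, a NASH-T over Con ratio of 9.97 (2.51 to 86.4). The NASH and Con counts are at or below 3 UMIs, so the size is poorly bounded. GLIS1, a zinc finger transcription factor scarcely found in all other barcodes (0.381 CPM in NASH-T, 0.624 CPM in NASH and 0.320 CPM in Con), had 62.4 CPM in NASH-T, 36.4 CPM in NASH and 17.5 CPM in Con and a ratio of 3.56 (1.72 to 8.29). THBS1, thrombospondin-1, a matricellular protein that can activate latent TGF-beta, had 104 CPM in NASH-T, 57.3 CPM in NASH and 33.1 CPM in Con and a ratio of 3.14 (1.84 to 5.68), with 0.831 in all other barcodes. Fibroblast or smooth muscle barcodes held more THBS1, at 514 CPM in NASH-T, 444 CPM in NASH and 410 CPM in Con. THRA had a NASH-T over Con ratio of 3.15 (1.36 to 8.49). TFPI2 had one of 3.09 (1.24 to 9.17), which was 2.46 and no longer counted among RELN-positive barcodes. The other named genes were IK (ratio 4.48), EML6 (4.27) and the ubiquitin ligase gene RNF122 (3.56). FOS and NR4A1 are described with the immediate early genes.

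Lower in NASH-T than in Con were MOB3B, a MOB kinase activator, with 101 CPM in NASH-T, 143 CPM in NASH and 259 CPM in Con and a ratio of 0.391 (0.290 to 0.524), and RASEF, a Rab-type GTPase, with 88.7 CPM in NASH-T, 129 CPM in NASH and 237 CPM in Con and a ratio of 0.374 (0.272 to 0.510). The NASH over Con ratio was 0.553 (0.426 to 0.718) for MOB3B and 0.543 (0.412 to 0.714) for RASEF, and the NASH-T over Con values of both counted under all 12 alternatives. In all other barcodes the NASH-T over Con ratio was 1.17 for MOB3B and 1.14 for RASEF. Fibroblast or smooth muscle barcodes held more MOB3B, at 474 CPM in NASH-T, 388 CPM in NASH and 333 CPM in Con. PLXDC2, a plexin domain membrane protein, had 87.3 CPM in NASH-T, 100.2 CPM in NASH and 204 CPM in Con and a NASH-T over Con ratio of 0.427 (0.308 to 0.590). TLL1 had a NASH-T over Con ratio of 0.0890 (0.0274 to 0.226), and 0.153 among RELN-positive barcodes, and GRIK4 one of 0.230 (0.105 to 0.466). Also lower were the crosslink repair gene DCLRE1A (ratio 0.329), RWDD3 (0.421) and IQCE (0.422). ADAM19, a membrane metalloprotease, had a ratio of 0.434 (0.206 to 0.879), whereas sinusoidal endothelial barcodes had one of 4.07 (1.99 to 9.67).

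Set against NASH, the NASH-T stellate barcodes were higher in the secreted or surface genes DLK1 and SPARCL1. DLK1, a noncanonical Notch ligand, had 69.3 CPM in NASH-T, 13.0 CPM in NASH and 27.2 CPM in Con, a NASH-T over NASH ratio of 5.32 (2.67 to 11.8). SPARCL1, a matricellular protein, had 77.6 CPM in NASH-T, 22.1 CPM in NASH and 46.7 CPM in Con and a ratio of 3.51 (2.01 to 6.44). The potassium channel gene KCNK17 had 55.4 CPM in NASH-T, 14.3 CPM in NASH and 37.0 CPM in Con and a ratio of 3.87 (1.95 to 8.37), and LSAMP, a neural adhesion molecule, had 87.3 CPM in NASH-T, 24.7 CPM in NASH and 44.7 CPM in Con and a ratio of 3.53 (2.09 to 6.25). These 4 genes counted as higher under all 12 alternatives. DLK1 and SPARCL1 were also higher in all other NASH-T barcodes, by 10.0-fold for DLK1 and 2.67-fold for SPARCL1, though DLK1 was scarce there, at 1.32 CPM in NASH-T and 0.131 CPM in NASH. FSHR had a ratio of 9.94 (3.07 to 51.1). Also higher were CHD3 (ratio 3.19), a chromatin remodeller of the NuRD complex, TMEM150C (3.00) and ZNF496 (2.96). GTF2A1L had a ratio of 3.51 (1.69 to 7.99), whereas sinusoidal endothelial barcodes had one of 0.632 (0.443 to 0.903).

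Lower in NASH-T than in NASH was ADM, the vasodilator peptide adrenomedullin, with 27.7 CPM in NASH-T, 115 CPM in NASH and 77.8 CPM in Con and a ratio of 0.242 (0.141 to 0.397). In all other barcodes ADM had a ratio of 1.56. RRAD had a NASH-T over NASH ratio of 0.254 (0.113 to 0.513), against 0.326 in all other barcodes. ADAMTS19, a secreted metalloprotease, had 5 UMIs in NASH-T, 36 UMIs in NASH and 9 UMIs in Con and a ratio of 0.148 (0.0453 to 0.378). SEMA7A, a membrane-anchored semaphorin, had a ratio of 0.431 (0.230 to 0.773). ADM, RRAD and SEMA7A counted as lower under all 12 alternatives. NOTCH1, a Notch receptor, had 8 UMIs in NASH-T, 22 UMIs in NASH and 7 UMIs in Con and a ratio of 0.387 (0.149 to 0.903), but 0.447 (0.167 to 1.09) without called doublets, which no longer counted. Also lower were the sulfhydryl oxidase gene QSOX1 (ratio 0.430), SCHIP1 (0.228), CEP57L1 (0.282) and the RNA exosome gene EXOSC7 (0.367).

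**Figure D4:**
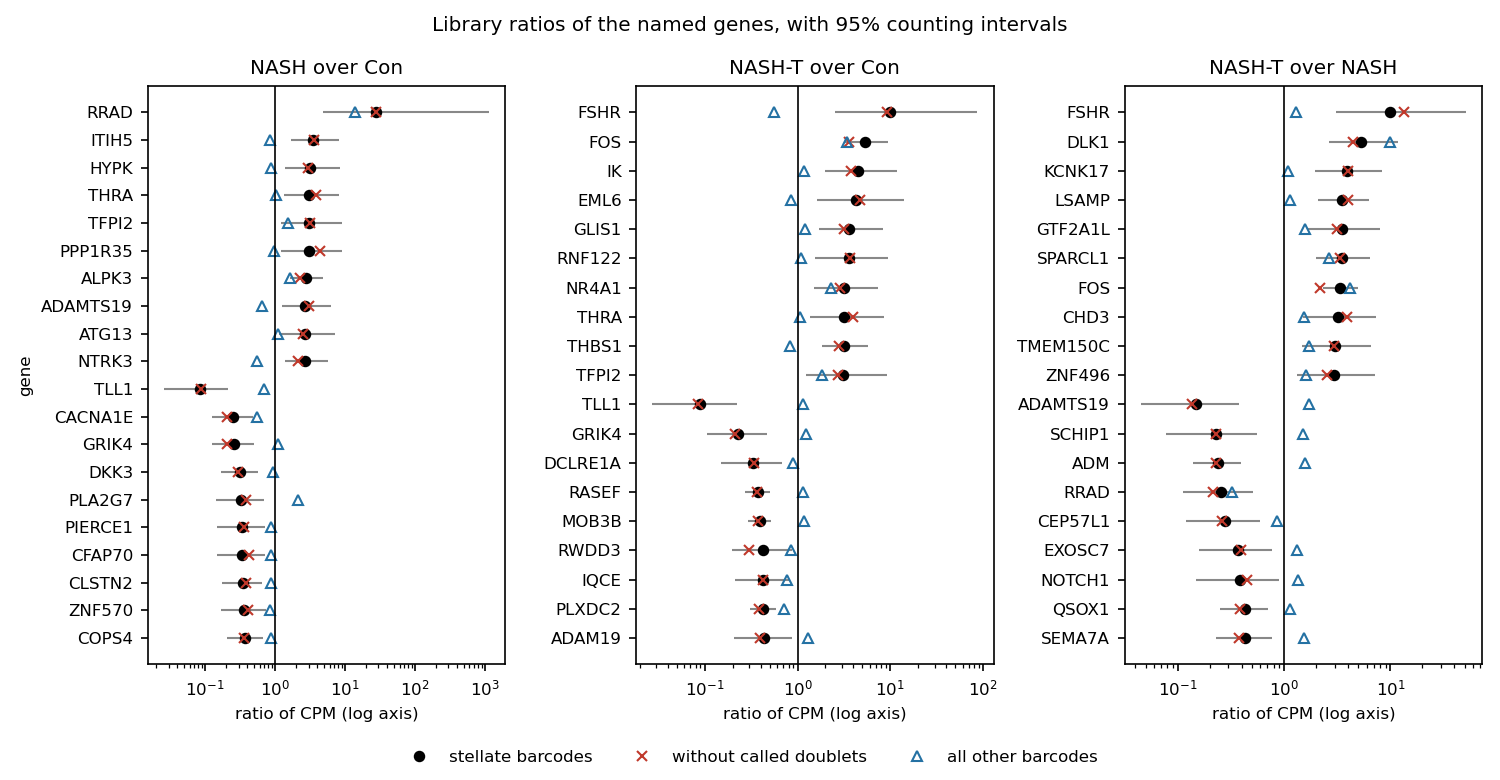
CPM ratios (log axis) of named genes for NASH over Con, NASH-T over Con and NASH-T over NASH in stellate barcodes (black, with 95% counting intervals), in stellate barcodes without called doublets (red crosses) and in all other barcodes (blue triangles). Among the triangles far from 1 are RRAD, at 13.99 for NASH over Con, and FOS, at 3.39 for NASH-T over Con.

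Genes of vitamin A handling lay on both sides. Of 9 measured list members, 1 was higher and 1 lower for NASH over Con, 1 higher and 1 lower for NASH-T over Con, and 1 higher and 2 lower for NASH-T over NASH. The median log2 ratio was 0.05 for NASH over Con, -0.33 for NASH-T over Con and -0.15 for NASH-T over NASH. LRAT, which makes retinyl esters and was used by the rule, had 182 CPM in NASH-T, 148 CPM in NASH and 171 CPM in Con. ALDH1A2, which makes retinoic acid, had 97.0 CPM in NASH-T, 61.2 CPM in NASH and 132 CPM in Con and a NASH over Con ratio of 0.462 (0.312 to 0.681). Among RELN-positive barcodes it was 0.607 and no longer counted, and 22 of the 68 Con UMIs came from 1 barcode. ALDH1A1, another retinaldehyde dehydrogenase, had 419 CPM in NASH-T, 719 CPM in NASH and 591 CPM in Con, with a NASH-T over NASH ratio of 0.583 (0.505 to 0.671) that was 0.675 (0.578 to 0.788) without called doublets and no longer counted. The retinal reductase DHRS3 had 48.5 CPM in NASH-T, 92.4 CPM in NASH and 89.5 CPM in Con and a NASH-T over NASH ratio of 0.525 (0.340 to 0.797). All other barcodes held more DHRS3, at 388 CPM in NASH-T, 396 CPM in NASH and 454 CPM in Con.

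Genes of stellate identity and quiescence passed the threshold at shares near or under those of all genes. Of 22 measured for NASH over Con, 1 was higher and none lower, of 23 for NASH-T over Con 2 were higher and none lower, and of 24 for NASH-T over NASH 1 was higher and 1 lower. COLEC10, a collectin of innate immunity, had 979.8 CPM in NASH-T, 696 CPM in NASH and 981 CPM in Con. GATA4, a transcription factor known in mice to keep stellate cells quiescent, had 496 CPM in NASH-T, 482 CPM in NASH and 461 CPM in Con, and the receptor gene PDGFRA had 385 CPM in NASH-T, 454 CPM in NASH and 354 CPM in Con. RGS5, a pericyte regulator of G protein signals, had 20 UMIs in NASH-T, 4 UMIs in NASH and 2 UMIs in Con and a NASH-T over Con ratio of 7.12 (1.73 to 62.9), but 11 of the 20 NASH-T UMIs came from 1 barcode and the gene could not be measured in RELN-positive barcodes. ALCAM, an adhesion molecule that all other barcodes held at 1026 CPM in NASH-T, 1212 CPM in NASH and 975 CPM in Con, had ratios of 1.51 (1.20 to 1.92) for NASH over Con and 0.577 (0.462 to 0.717) for NASH-T over NASH, and the NASH-T over NASH value was 0.789 and no longer counted without called doublets.

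Of 11 measured activation and contractile genes, none passed 1.5-fold for NASH over Con in either direction, where 9.68% of all genes passed, and their median log2 ratio was -0.12. ACTA2, which the rule held down, had 452 CPM in NASH-T, 482 CPM in NASH and 488 CPM in Con, and MYH11, also used by the rule, had 2277 CPM in NASH-T, 1480.0 CPM in NASH and 1912 CPM in Con. TPM1, a tropomyosin, had 604 CPM in NASH-T, 849 CPM in NASH and 584 CPM in Con and a NASH over Con ratio of 1.45 (1.27 to 1.67), and without called doublets TPM1 and TPM2 passed the threshold. Vimentin (VIM), an intermediate filament protein, had 130.3 CPM in NASH-T, 72.9 CPM in NASH and 83.7 CPM in Con and was higher in NASH-T, with ratios of 1.56 (1.07 to 2.29) over Con and 1.79 (1.27 to 2.53) over NASH. Without called doublets the ratio over Con was 1.37 (0.943 to 2.02) and no longer counted.

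Of the collagens, the basement membrane chain genes COL4A1 and COL4A4 were higher in NASH. Of 11 measured, 3 were higher and 1 lower for NASH over Con, and 2 higher and none lower for NASH-T over Con, while of 12 for NASH-T over NASH 2 were higher and none lower. COL1A1, the main fibrillar chain of scar, had 13.9 CPM in NASH-T, 20.8 CPM in NASH and 5.84 CPM in Con. These levels rest on too few UMIs to meet the minimum for comparing NASH or NASH-T with Con. No difference from Con is therefore read for COL1A1. For NASH-T over NASH it counted as neither higher nor lower. COL1A2 had 134 CPM in NASH-T, 84.6 CPM in NASH and 81.7 CPM in Con, with ratios of 1.65 (1.13 to 2.42) for NASH-T over Con and 1.59 (1.15 to 2.21) for NASH-T over NASH, the second of which was 1.47 and no longer counted among RELN-positive barcodes. COL4A1 had 322 CPM in NASH-T, 354 CPM in NASH and 235 CPM in Con and a NASH over Con ratio of 1.504 (1.21 to 1.88), right at the threshold and below it among RELN-positive barcodes (1.49). COL4A4 had 121 CPM in NASH-T, 124 CPM in NASH and 64.2 CPM in Con and ratios of 1.88 (1.24 to 2.90) for NASH-T over Con and 1.93 (1.28 to 2.96) for NASH over Con. COL8A1, a short-chain collagen, had 148 CPM in NASH-T, 91.1 CPM in NASH and 208 CPM in Con and a NASH over Con ratio of 0.438 (0.319 to 0.597), which counted under all 12 alternatives. COL5A2, a minor fibrillar chain, did not pass 1.5-fold in any comparison, at 1718 CPM in NASH-T, 1430.5 CPM in NASH and 1726 CPM in Con.

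Matrix glycoproteins included genes on either side. For NASH over Con 2 of 22 measured were higher and 4 lower, for NASH-T over Con 5 of 24 higher and 2 lower, and for NASH-T over NASH 4 of 24 higher and 1 lower. LAMB1, a laminin chain, had 322 CPM in NASH-T, 349 CPM in NASH and 570.1 CPM in Con, with ratios of 0.564 (0.473 to 0.672) for NASH-T over Con and 0.612 (0.517 to 0.725) for NASH over Con, both counted under all 12 alternatives. BGN, the proteoglycan biglycan, had 125 CPM in NASH-T, 103 CPM in NASH and 60.3 CPM in Con, with ratios of 2.07 (1.36 to 3.22) for NASH-T over Con and 1.70 (1.11 to 2.67) for NASH over Con. The nidogen NID1 had a NASH over Con ratio of 1.59 (1.11 to 2.29), below the threshold among RELN-positive barcodes (1.49), and IGFBP3, which binds insulin-like growth factors, had a NASH-T over Con ratio of 1.81 (1.13 to 2.97). DPT, dermatopontin, had 46 UMIs in NASH-T, 23 UMIs in NASH and 11 UMIs in Con and a NASH-T over Con ratio of 2.98 (1.52 to 6.38), which was 1.41 and no longer counted among RELN-positive barcodes. Fibronectin (FN1) had 19.4 CPM in NASH-T, 40.4 CPM in NASH and 95.3 CPM in Con and a NASH-T over Con ratio of 0.204 (0.104 to 0.375), but without called doublets the ratio was 0.983 (0.312 to 3.36) and no longer counted. All other barcodes held far more FN1, at 401 CPM in NASH-T, 406 CPM in NASH and 447 CPM in Con.

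Among proteases and their inhibitors, none of 17 measured passed the threshold for NASH over Con. For NASH-T over Con 1 of 18 was higher and 2 lower, and for NASH-T over NASH none of 19 was higher and 2 were lower. ADAMTS9, which cleaves proteoglycans, had 301 CPM in NASH-T, 518 CPM in NASH and 442 CPM in Con and a NASH-T over NASH ratio of 0.581 (0.490 to 0.687). ADAMTS17 had 80.4 CPM in NASH-T, 147 CPM in NASH and 140.1 CPM in Con, with ratios of 0.574 (0.399 to 0.822) for NASH-T over Con and 0.546 (0.391 to 0.757) for NASH-T over NASH. The NASH-T over NASH values of both counted under all 12 alternatives. TIMP3, a tissue inhibitor of metalloproteases, had 226 CPM in NASH-T, 178 CPM in NASH and 128 CPM in Con and a NASH-T over Con ratio of 1.76 (1.31 to 2.38).

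TGF-beta and BMP pathway genes passed the threshold less often than all genes for NASH over Con (3.57% against 9.68%). They passed about as often for NASH-T over Con (10.7% against 10.6%) and NASH-T over NASH (10.0% against 12.5%). For NASH over Con 1 of 28 measured was higher and none lower. For NASH-T over Con 2 of 28 were higher and 1 lower, and for NASH-T over NASH 2 of 30 higher and 1 lower. The BMP receptor BMPR2 had 1502 CPM in NASH-T, 1444 CPM in NASH and 1522 CPM in Con, and LTBP1, which holds latent TGF-beta in the matrix, had 784 CPM in NASH-T, 724 CPM in NASH and 732 CPM in Con. BMPER, a secreted BMP-binding protein, had 213 CPM in NASH-T, 271 CPM in NASH and 171 CPM in Con and a NASH over Con ratio of 1.58 (1.23 to 2.05), which was 1.47 and no longer counted among RELN-positive barcodes. The receptor-regulated SMAD5 had a NASH-T over Con ratio of 1.57 (1.22 to 2.02) and SMAD1 one of 0.645 (0.476 to 0.873). TGFBR3, betaglycan, had 449 CPM in NASH-T, 292 CPM in NASH and 366 CPM in Con and a NASH-T over NASH ratio of 1.54 (1.29 to 1.83), which was 1.41 and no longer counted without called doublets.

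Growth factor receptors showed 2 higher and 2 lower of 23 for NASH over Con, 1 higher and 3 lower of 23 for NASH-T over Con, and none higher and 3 lower of 23 for NASH-T over NASH. FGFR2, a fibroblast growth factor receptor, had 2151 CPM in NASH-T, 2245 CPM in NASH and 2579.9 CPM in Con, and IGF1R had 938 CPM in NASH-T, 830.5 CPM in NASH and 864 CPM in Con. MERTK, a receptor for apoptotic cells, had 143 CPM in NASH-T, 179.6 CPM in NASH and 93.4 CPM in Con, with ratios of 1.53 (1.08 to 2.20) for NASH-T over Con and 1.92 (1.38 to 2.73) for NASH over Con, the first of which was 1.42 and no longer counted among RELN-positive barcodes. ROR1, an orphan receptor of the Wnt system, had 398 CPM in NASH-T, 316 CPM in NASH and 475 CPM in Con and a NASH over Con ratio of 0.666 (0.556 to 0.799), just at the threshold and above it without called doublets (0.686), where it no longer counted. The HGF receptor MET was scarce in stellate barcodes, at 5 UMIs in NASH-T, 21 UMIs in NASH and 18 UMIs in Con. KIT had 15 UMIs in Con, all from 1 barcode, and a NASH over Con ratio of 0.223 (0.0634 to 0.645), which was 0.133 and no longer counted among RELN-positive barcodes.

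Of secreted growth factors and guidance cues, 3 of 22 were higher and none lower for NASH over Con, 2 of 22 higher and 4 lower for NASH-T over Con, and 2 of 23 higher and 1 lower for NASH-T over NASH. ANGPT1, the angiopoietin that acts on the endothelial receptor TEK, had 593 CPM in NASH-T, 794 CPM in NASH and 1117 CPM in Con, a NASH-T over Con ratio of 0.531 (0.468 to 0.603) that counted under all 12 alternatives. In all other barcodes ANGPT1 had 88.6 CPM in NASH-T, 226 CPM in NASH and 79.5 CPM in Con. SLIT3, a ligand of ROBO receptors, had 299 CPM in NASH-T, 273 CPM in NASH and 175 CPM in Con, with ratios of 1.71 (1.33 to 2.21) for NASH-T over Con and 1.56 (1.21 to 2.02) for NASH over Con. SEMA3D had a NASH over Con ratio of 1.52 (1.24 to 1.86), which was 1.12 and no longer counted among RELN-positive barcodes. The growth factor FGF7 had a NASH-T over Con ratio of 0.573 (0.351 to 0.929), and 0.337 among RELN-positive barcodes. Neurotrophin-3 (NTF3) had one of 0.666 (0.458 to 0.969). IGF1, an insulin-like growth factor that all other barcodes held at 614 CPM in NASH-T, 717 CPM in NASH and 549 CPM in Con, had a NASH over Con ratio of 1.63 (1.19 to 2.25), and 1.63 (0.972 to 2.82) without called doublets, which no longer counted. FGF2, a fibroblast growth factor, did not pass 1.5-fold in any comparison, at 1123 CPM in NASH-T, 821 CPM in NASH and 1126 CPM in Con.

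Of receptors for vasoactive signals and cyclic nucleotide enzymes, 3 of 22 were higher and 1 lower for NASH over Con, none of 21 higher and 2 lower for NASH-T over Con, and none of 23 higher and 2 lower for NASH-T over NASH. CALCRL, a receptor component for adrenomedullin and CGRP, had 3197 CPM in NASH-T, 2494 CPM in NASH and 2959 CPM in Con. PDE1A was the 1 lower gene for NASH over Con. PDE10A had 378 CPM in NASH-T, 510.2 CPM in NASH and 339 CPM in Con and a NASH over Con ratio of 1.51 (1.26 to 1.81). NPR3, the natriuretic peptide clearance receptor, had 183 CPM in NASH-T, 203 CPM in NASH and 294 CPM in Con and a NASH-T over Con ratio of 0.623 (0.489 to 0.792). ADRA1A, an adrenergic receptor that all other barcodes held at 1892 CPM in NASH-T, 2152 CPM in NASH and 1696 CPM in Con, had 231 CPM in NASH-T, 566 CPM in NASH and 305 CPM in Con, with a NASH over Con ratio of 1.85 (1.54 to 2.24) and a NASH-T over NASH ratio of 0.409 (0.340 to 0.490), which was 0.731 and no longer counted without called doublets.

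Ion channel and neuronal-type genes were more often lower than higher: 1 of 19 higher and 4 lower for NASH over Con, none of 19 higher and 4 lower for NASH-T over Con, and 1 of 20 higher and 4 lower for NASH-T over NASH. Over all genes, more were also lower than higher for NASH-T over Con (5.84% against 4.72%) and NASH-T over NASH (8.09% against 4.43%). For NASH over Con they were not (3.51% against 6.17%). Without called doublets, 1 of 20 list genes was higher and 2 lower for NASH-T over NASH. CNTN4, a neural adhesion molecule, had 1609 CPM in NASH-T, 1667 CPM in NASH and 1399 CPM in Con, and the calcium channel subunit CACNA2D1 had 1139 CPM in NASH-T, 1017 CPM in NASH and 1224 CPM in Con. KCNJ8, the pore subunit that pairs with ABCC9, had 84.5 CPM in NASH-T, 52.1 CPM in NASH and 95.3 CPM in Con and a NASH over Con ratio of 0.546 (0.350 to 0.847). KCNMA1, a large-conductance potassium channel, had 38.8 CPM in NASH-T, 217 CPM in NASH and 142 CPM in Con and a NASH-T over NASH ratio of 0.179 (0.115 to 0.268), which was 0.317 without called doublets. All other barcodes had 1013 CPM in NASH-T, 876 CPM in NASH and 1062 CPM in Con. Its NASH-T over Con ratio of 0.273 (0.170 to 0.428) was 0.710 (0.299 to 1.70) and no longer counted without called doublets. PLCXD3, a gene of the RELN-negative barcodes, had a NASH over Con ratio of 0.573 (0.471 to 0.696), and 0.307 among RELN-positive barcodes.

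Of adhesion genes, none was higher and 2 of 19 were lower for NASH over Con, none higher and 4 of 19 lower for NASH-T over Con, and none higher and 1 of 21 lower for NASH-T over NASH. Without called doublets 1 of 21, ITGA4, was higher and none lower for NASH-T over NASH. CDH2 had 5735 CPM in NASH-T, 5545 CPM in NASH and 5490.5 CPM in Con, the integrin ITGA9 had 4443 CPM in NASH-T, 4424 CPM in NASH and 4076 CPM in Con, and the neuropilin NRP1 had 572 CPM in NASH-T, 499 CPM in NASH and 539 CPM in Con. ROBO2, a receptor for SLIT ligands, had 662 CPM in NASH-T, 827 CPM in NASH and 1060.4 CPM in Con and a NASH-T over Con ratio of 0.625 (0.551 to 0.708). ITGA1, a collagen-binding integrin, had a NASH-T over Con ratio of 0.658 (0.545 to 0.794), which was 0.707 and no longer counted among RELN-positive barcodes, and CDH13 (T-cadherin) one of 0.341 (0.218 to 0.523).

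Developmental pathways had 1 of 25 higher and 2 lower for NASH over Con, 1 of 24 higher and 1 lower for NASH-T over Con, and 1 of 25 higher and 2 lower for NASH-T over NASH. The Hedgehog effector GLI3 had 1355 CPM in NASH-T, 1337 CPM in NASH and 1368 CPM in Con, without a difference past 1.5-fold. WWTR1, the Hippo pathway coactivator TAZ, had 262 CPM in NASH-T, 129 CPM in NASH and 253 CPM in Con, with ratios of 0.509 (0.388 to 0.667) for NASH over Con and 2.03 (1.59 to 2.62) for NASH-T over NASH, both counted under all 12 alternatives. YAP1, its paralogue, had 356 CPM in NASH-T, 339.7 CPM in NASH and 432 CPM in Con and did not pass 1.5-fold in any comparison. CCN1, a secreted target of YAP and TAZ, had 27 UMIs in NASH-T, 60 UMIs in NASH and 23 UMIs in Con and a NASH over Con ratio of 1.75 (1.06 to 2.96), but 17 of the 23 Con UMIs came from 1 barcode and the ratio was 5.74 among RELN-positive barcodes.

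Cytokine and immune receptor genes had 3 of 20 higher and none lower for NASH over Con, 1 of 21 higher and 1 lower for NASH-T over Con, and 1 of 21 higher and 2 lower for NASH-T over NASH. LIFR, the receptor for leukaemia inhibitory factor, had 1709 CPM in NASH-T, 1704 CPM in NASH and 2164 CPM in Con, and IL6ST, the shared signalling chain of that receptor family, had 735 CPM in NASH-T, 763 CPM in NASH and 839 CPM in Con. NFKBIA, the inhibitor of NF-kappa-B that the pathway itself induces, had 63.8 CPM in NASH-T, 58.6 CPM in NASH and 25.3 CPM in Con, with ratios of 2.52 (1.34 to 5.09) for NASH-T over Con and 2.32 (1.23 to 4.68) for NASH over Con. The interleukin-1 receptor subunit IL1RAP had 42.96 CPM in NASH-T, 138 CPM in NASH and 72.0 CPM in Con, with a NASH over Con ratio of 1.92 (1.31 to 2.87). Its NASH-T over Con ratio of 0.597 (0.358 to 0.989) was 1.22 (0.631 to 2.46) without called doublets.

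Immediate early genes, which cells switch on quickly after stimulation, were higher in NASH-T. Of 11 measured, 6 were higher and none lower for NASH-T over Con, with a median log2 ratio of 1.10, and of 12 measured for NASH-T over NASH 6 were higher and none lower, with a median of 0.83. For NASH over Con 1 of 11 was higher. Without called doublets 5 of 11 were higher for NASH-T over Con and 3 of 12 for NASH-T over NASH. FOS, a subunit of the AP-1 transcription factor, had 126 UMIs in NASH-T, 40 UMIs in NASH and 17 UMIs in Con, or 175 CPM in NASH-T, 52.1 CPM in NASH and 33.1 CPM in Con, with ratios of 5.28 (3.17 to 9.35) for NASH-T over Con and 3.35 (2.33 to 4.91) for NASH-T over NASH. FOS UMIs came from 49 barcodes in NASH-T, 13 in NASH and 7 in Con, with up to 37 from 1 NASH-T barcode and 19 from 1 NASH barcode. Without called doublets the ratio was 3.56 for NASH-T over Con and 2.18 for NASH-T over NASH. Among RELN-positive barcodes it was 20.6 for NASH-T over Con and 15.6 for NASH-T over NASH, so the call held but its size ranged widely. JUN, its partner, had 103 CPM in NASH-T, 36.4 CPM in NASH and 35.0 CPM in Con and ratios of 2.93 (1.73 to 5.21) over Con and 2.81 (1.80 to 4.52) over NASH, with 31 of the 74 NASH-T UMIs in 1 barcode. Without called doublets JUN was at 1.75 over Con and 1.41 over NASH and no longer counted.

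NR4A1, an immediate early nuclear receptor, had 55.4 CPM in NASH-T, 27.3 CPM in NASH and 17.5 CPM in Con and a NASH-T over Con ratio of 3.17 (1.51 to 7.42), and 15.5 among RELN-positive barcodes. All Con stellate barcodes together held 9 NR4A1 UMIs, and the RELN-positive ones fewer, so the size of the second ratio is poorly bounded. The shear-responsive factor KLF2 had 51.3 CPM in NASH-T, 16.9 CPM in NASH and 15.6 CPM in Con and a NASH-T over Con ratio of 3.29 (1.51 to 8.19), which was 3.86 and no longer counted among RELN-positive barcodes. ZFP36, which promotes decay of inflammatory mRNAs, had 115 CPM in NASH-T, 67.7 CPM in NASH and 40.9 CPM in Con and a NASH-T over Con ratio of 2.82 (1.73 to 4.79). FOS, JUN and KLF2 were also highest in NASH-T among the 3 libraries' other barcodes. All other barcodes had 88.5 CPM in NASH-T, 21.1 CPM in NASH and 26.1 CPM in Con for FOS. For JUN they had 77.8 CPM in NASH-T, 32.3 CPM in NASH and 34.9 CPM in Con, and for KLF2 83.7 CPM in NASH-T, 30.8 CPM in NASH and 33.8 CPM in Con. T cells had 26.6 CPM of FOS in NASH-T, 9.62 CPM in NASH and 12.5 CPM in Con. Fibroblast or smooth muscle barcodes had a different order, with 646 CPM in NASH-T, 471 CPM in NASH and 718 CPM in Con for FOS and 198 CPM in NASH-T, 166 CPM in NASH and 333 CPM in Con for NR4A1.

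Lipid and cholesterol genes were higher in NASH. Of 19 measured, 6 were higher and none lower for NASH over Con, with a median log2 ratio of 0.35, and of 19 for NASH-T over NASH 1 was higher and 9 lower, with a median of -0.42. For NASH-T over Con 1 of 17 was higher and 1 lower. FASN, the fatty acid synthase, had 24.9 CPM in NASH-T, 89.8 CPM in NASH and 21.4 CPM in Con, with ratios of 4.20 (2.21 to 8.80) for NASH over Con and 0.278 (0.156 to 0.472) for NASH-T over NASH, the second of which was 0.524 (0.266 to 0.998) without called doublets. FDPS, of the sterol pathway, had 16.6 CPM in NASH-T, 70.3 CPM in NASH and 21.4 CPM in Con and a NASH over Con ratio of 3.28 (1.70 to 6.97), which was 2.36 (0.988 to 6.50) and no longer counted without called doublets. CD36, a fatty acid transporter, was higher in NASH-T, with 61.0 CPM in NASH-T, 26.0 CPM in NASH and 40.9 CPM in Con and a NASH-T over NASH ratio of 2.34 (1.35 to 4.20).

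FASN and FDPS were also highest in NASH in all other barcodes. For FASN these had 57.2 CPM in NASH-T, 328 CPM in NASH and 27.2 CPM in Con, and for FDPS 104 CPM in NASH-T, 243 CPM in NASH and 50.1 CPM in Con. Without called doublets, 2 of 15 measured lipid genes were higher for NASH over Con, among them FASN at 2.22 (1.02 to 5.33), and of 16 for NASH-T over NASH 1 was higher and 2 were lower. The summed hepatocyte markers in stellate barcodes were 3362 CPM in NASH-T, 4901 CPM in NASH and 3660 CPM in Con, and 3082 CPM in NASH-T, 3719 CPM in NASH and 2528.5 CPM in Con without called doublets, so they too were highest in NASH. Their part in the lipid gene result was not tested.

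**Figure D5:**
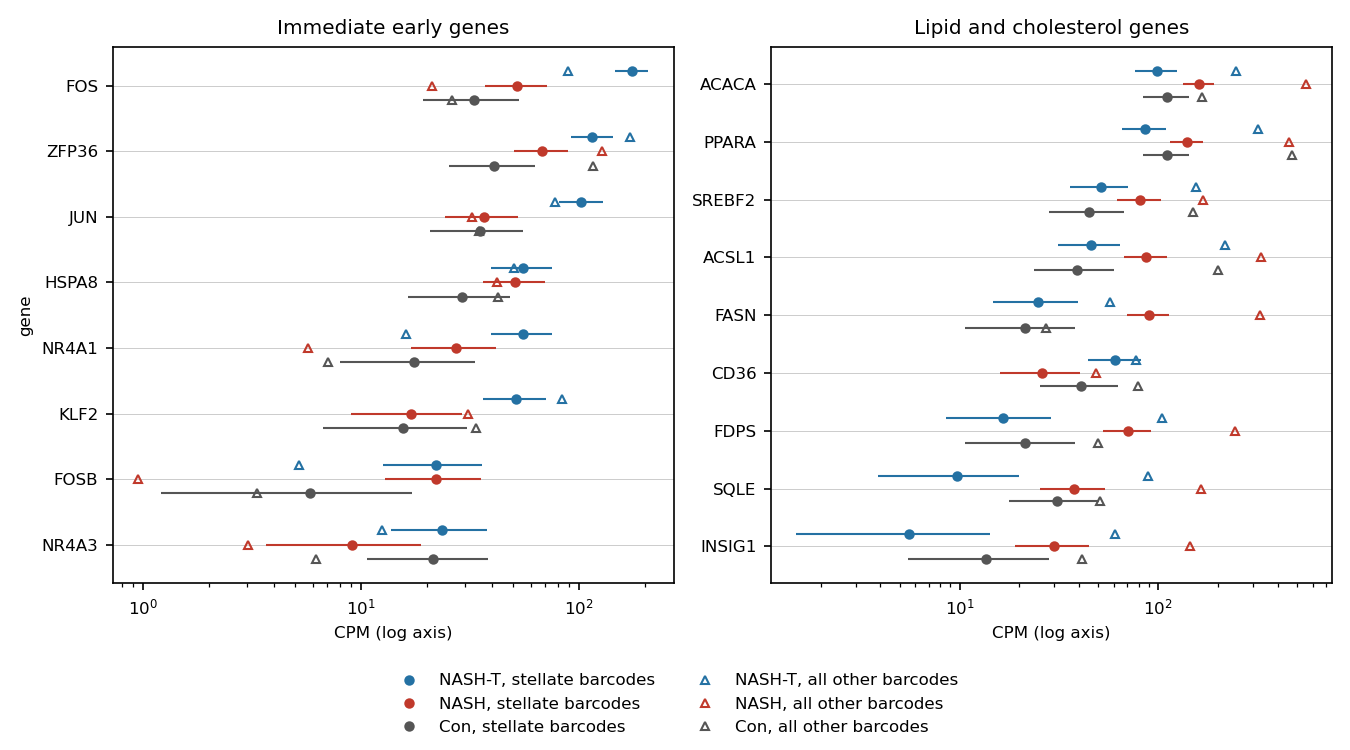
CPM (log axis, bars are exact 95% Poisson intervals) of immediate early genes and lipid and cholesterol genes that passed 1.5-fold in at least 1 comparison, in stellate barcodes (circles) and in all other barcodes (triangles) of the NASH-T, NASH and Con libraries. FOS lies highest in NASH-T, at 175 CPM in stellate and 88.5 CPM in all other barcodes, and FASN lies highest in NASH, at 89.8 CPM in stellate and 328 CPM in all other barcodes.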

How the data were processed

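Livers of 5 goats per group were pooled into 1 10x 3′ single-cell library per group. The authors deposited raw UMI counts per gene and barcode, made with Cell Ranger 7.0.0 per the file headers and the submitters' processing notes; the genome build is not given in the sources used here. Of 27271 genes, 9958 had only an identifier and were not named. No further cell filter was applied, and the lowest depth was 500 UMIs.

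Stellate barcodes and 3 comparison sets were chosen by rules on raw counts, then UMIs were summed per library and set and divided by the set's total. Levels have exact Poisson intervals, shares Clopper-Pearson intervals and ratios exact conditional binomial intervals, all at 95% and covering counting error only. With 1 library per group there is no test. Scrublet (in scanpy 1.11.5, expected rate 0.06) called doublets, which were kept. A ratio against 0 UMIs used a floor of 3 counts. Python 3.11.15, numpy 2.4.6, scipy 1.17.1 and pandas 2.3.3 were used. The intervals and calls were tested on simulated data.

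Genes were named by rule. Leaders had at least 50 UMIs and a UMI in at least 10% of stellate barcodes, ranked by the smallest library ratio to all other barcodes with 1 CPM added, and the first 25 were taken. Per comparison, named genes had at least 30 UMIs, a UMI in at least 5% of stellate barcodes of the higher library and 1.5 times the level of all other barcodes, up to 10 per direction. Per list, up to 4 called members and up to 4 with the highest level were named. COL1A1, GATA4, PDGFRA and the genes of the RELN split were chosen after their values were seen. The members and lists were chosen with earlier results of these data known. Alternatives changed the marker sum, the exclusion rule, the depth, the scaling, the low-count filter and doublets, and requiring a RELN UMI was added after seeing the data. A few genes that these rules name are not reported here; they stay in the counts over lists and over all genes.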

Additional observations from a re-analysis of the deposited data

Results flagged for a closer look

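ADAM19, a membrane metalloprotease, had opposite library differences in 2 cell sets. In stellate barcodes its NASH-T over Con ratio was 0.434, at 19.4 CPM in NASH-T and 44.7 CPM in Con. In sinusoidal endothelial barcodes it was 4.07 (1.99 to 9.67), at 91.4 CPM in NASH-T and 22.5 CPM in Con, with 8 UMIs in Con. The stellate call for ADAM19 was lost under 5 of 12 alternatives. GTF2A1L, a germ-cell relative of a general transcription factor subunit, had a NASH-T over NASH ratio of 3.51 in stellate barcodes. In sinusoidal endothelial barcodes the ratio was 0.632 (0.443 to 0.903), at 62.7 CPM in NASH-T and 99.2 CPM in NASH. With 1 library per group, neither difference between the cell sets was tested.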

How the results depend on the processing

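The share ratios of stellate barcodes kept their direction under every setting tried, at 1.44 to 1.55 for NASH over Con, 1.23 to 1.31 for NASH-T over Con and 0.828 to 0.895 for NASH-T over NASH. Counts of genes past 1.5-fold depended on depth and doublets. For NASH over Con the count was 670, and 345 with every barcode thinned to 1000 UMIs before the rule, 322 with stellate barcodes thinned after it and 445 with at least 50 UMIs. For NASH-T over Con it was 707, and 264, 332 and 459 under the same settings in that order. For NASH-T over NASH it was 910, and 357, 382 and 596, and 576 without called doublets. The genes called over all lists numbered 151, and 79 with thinning before the rule and 92 with thinning after it. Thinning removes UMIs and the higher minimum removes genes, so fewer could pass. Of 199 gene results for 136 genes, 33 held under all alternatives they had, and 52 were lost and 3 reversed without called doublets. Reversed without called doublets were IL1RAP at 1.22 for NASH-T over Con, PDE3B at 1.15 and PPARA at 1.02 for NASH-T over NASH. With thinning before the rule IL1RAP was at 1.05 and PPARA at 1.17, and with thinning after it PPARA and ALCAM were at 1.06 for NASH-T over NASH. With the mean of per-barcode CPM, FN1 was at 1.60 and CDH13 at 1.08 for NASH-T over NASH. The cause of these reversals was not tested. No paired analysis was possible because each group has 1 pooled library, and no replicate could be left out for the same reason. Depth limits single genes: at the smallest stellate total of 513979 UMIs, most of the 136 genes rest on fewer than 100 UMIs in each library.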
